A study of Mus musculus with 8 samples.

Results

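The extracellular matrix of the liver and the cells that make it were followed here through 41 genes, chosen by symbol: collagens, other matrix proteins, the enzymes that cross-link or cut them, their inhibitors, and filaments, signals and receptors of hepatic stellate cells. All 41 are on the array, with 87 of its 45281 probes (30869 gene symbols in all). A gene was tested if 4 or more of the 8 arrays detected a probe of it (detection p under 0.05). This held for 32 of the 41 genes and 50 of the 87 probes; 33 probes were detected on no array and 4 on 1 to 3 arrays.

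Each array held liver RNA of 1 male C57BL/6J mouse. The groups were 4 mice given an antisense oligonucleotide (ASO, synthetic nucleic acid that base-pairs with an RNA and leads to its loss) against Mogat1, the gene of a monoacylglycerol acyltransferase, which forms diacylglycerol, and 4 mice given a scrambled control ASO. All 8 mice had eaten a diet with 60% of its calories from fat since 6 weeks of age, and from 14 weeks into the diet received 25 mg/kg of ASO into the peritoneum 2 times a week for 3 weeks. Their listed age of 25 weeks is more than these times add up to, and no group on ordinary chow or without any ASO was analysed here.

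In a healthy liver, hepatic stellate cells lie between the hepatocytes and the sinusoidal endothelium and store vitamin A. When the liver is injured they can turn into myofibroblasts, which carry smooth muscle actin and secrete fibrillar collagens, the process behind fibrosis, which can follow fat accumulation in the liver. Collagen IV, laminins and perlecan form basement membranes, and fibroblasts of the portal tracts, endothelial cells and macrophages also make parts of the matrix.

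Levels are normalized log2 intensities, and a difference is the mean of the Mogat1 ASO livers minus that of the control ASO livers, with its standard error (SE). Adjusted p-values are those of limma, adjusted by Benjamini and Hochberg's method across the 16487 tested probes, and a gene passed at an adjusted p under 0.05. The brightest tested probe stands for each gene, and values of 1 gene are not set against those of another. The arrays were alike in general measures: the median signal was 84.3 to 112 per array and 15788 to 16944 probes were detected. The groups were separate on the first principal component (43.8% of variance). On it, Mogat1 ASO liver 1 was at 8.36 and the other Mogat1 ASO livers were between 23.6 and 29.2. Control livers were between -25.8 and -16.7. Mogat1 ASO liver 1 stood apart on the second principal component (19.0% of variance), at 34.4, control ASO liver 1 was at 13.9, and the other 6 livers were between -15.7 and -0.08. The Mogat1 probe was detected on no array (lowest detection p 0.814), so the lowering of the target could not be read here. Of 10 hepatocyte markers, 6 were tested and none passed the threshold in limma (median difference -0.17). At an unadjusted p under 0.05 in limma, 0 were higher and 2 lower, beside 15.2% and 13.7% of all genes. Apoa1, the main protein of high-density lipoprotein and the brightest of the tested hepatocyte markers, averaged 15.76 in Mogat1 ASO and 15.81 in control livers. The widest difference was that of Ass1, a urea cycle enzyme, at -0.71 (adjusted p = 0.0732 by limma), and those of Cps1, also of the urea cycle, and Hnf4a, a hepatocyte transcription factor, were -0.40 (adjusted p = 0.225) and -0.29 (adjusted p = 0.0942). Probes of Alb, Fgb and Tat, genes that hepatocytes use strongly, were detected on no array (lowest detection p 0.0609, 0.637 and 0.827). A probe that is not detected on these arrays is therefore no sign that its RNA is absent.

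Of the 32 tested genes, 4 were higher in Mogat1 ASO livers at an adjusted p under 0.05: Sparc, Vim, Col4a1 and Lamc1. This is 4 of 32 beside 7.14% of all 11686 genes tested. By probe, 5 of the 50 member probes tested were higher and 0 lower, beside 6.68% and 5.93% of all probes. None of the 32 genes was lower in limma, against 6.12% of all genes; at an unadjusted p under 0.05, 9 members were higher and 0 lower (15.2% and 13.7% of all genes). The median difference of the members was 0.15, and that of all genes was -0.0036. The members' median was 0.0699 without Mogat1 ASO liver 2 and 0.247 without Mogat1 ASO liver 1, the lowest and highest when 1 liver was left out. Of the members, 22 had a positive difference and 10 a negative one, against 5781 and 5905 of all genes, and the members ranged from -0.45 to 0.80. In 4 members, Sparc, Vim, Col4a1 and Timp3, every Mogat1 ASO liver lay above every control liver, and in none did every one lie below (10.3% and 8.81% of all genes). Of 13 genes with several tested probes, the differences had the same sign in 8 and opposite signs in 5 (Hspg2, Acta2, Dcn, Fn1 and Timp3). Counts of genes that were higher moved with single livers, among the members and among all genes. The members' count was 2, 1 and 2 without Mogat1 ASO liver 2, 3 or 4, beside 5.74%, 4.02% and 4.53% of all genes. It was 7, 1 and 1 without control ASO liver 1, 2 or 3, beside 6.95%, 4.27% and 4.36% of all genes. In these whole-liver samples, a difference in the number of cells of a type and a difference in the RNA per cell cannot be told apart.

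**Figure D1:**
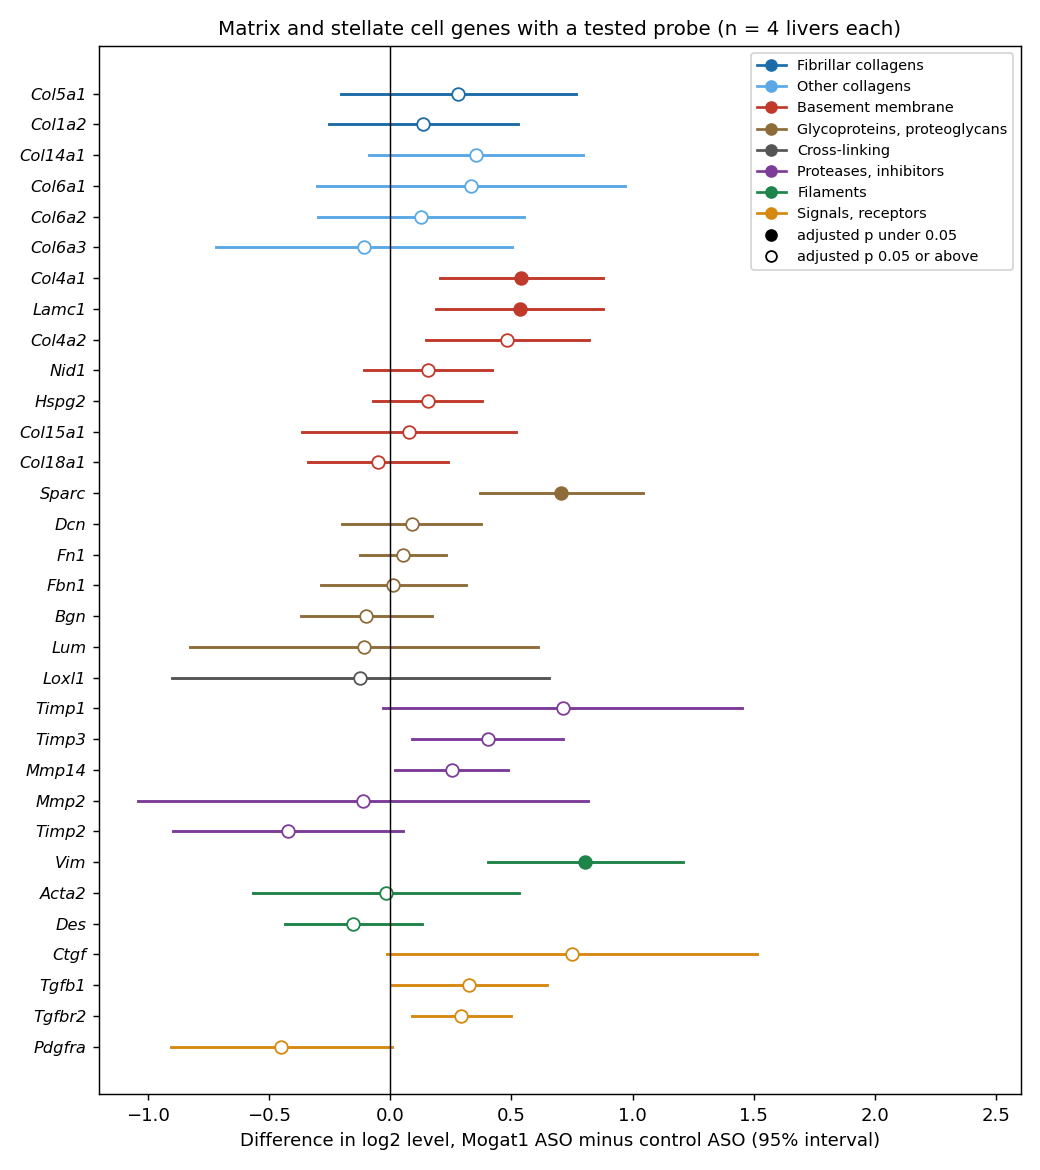
Difference in normalized log2 level, Mogat1 ASO minus control ASO livers, for the 32 tested genes by role, with the 95% confidence interval of the limma fit as bars (4 livers a group); filled points passed the adjusted threshold. Sparc, Vim, Col4a1 and Lamc1 lie between 0.53 and 0.80, and of the other intervals all but those of Col4a2, Timp3, Mmp14, Tgfb1 and Tgfbr2 include 0.

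The sequences upstream of Sparc, Vim, Col4a1 and Col4a2 are shown because Sparc, Vim and Col4a1 passed the test and Col4a2, which did not, starts beside Col4a1; a sequence for Lamc1, which also passed, was not used here. Each runs from 250 bases before to 50 bases after the annotated start, from RefSeq on GRCm38.p6, in which 26 of the 41 genes were matched. The CCAAT box (CCAAT) and the GC box (GGGCGG), both read on both strands, were searched. They mark where general promoter factors can bind, and 37.41% and 35.66% of all 32851 promoters in the RefSeq table hold them. In the sequences of Sparc (chr11:55420031-55420330, minus strand) and Vim (chr2:13574061-13574360, plus strand) capitals mark matches to either motif: there are 2 CCAAT matches for Vim and no match for Sparc. In those of Col4a1 (chr8:11312777-11313076, minus strand) and Col4a2 (chr8:11312555-11312854, plus strand) capitals mark the stretch that both windows hold.
Sparc: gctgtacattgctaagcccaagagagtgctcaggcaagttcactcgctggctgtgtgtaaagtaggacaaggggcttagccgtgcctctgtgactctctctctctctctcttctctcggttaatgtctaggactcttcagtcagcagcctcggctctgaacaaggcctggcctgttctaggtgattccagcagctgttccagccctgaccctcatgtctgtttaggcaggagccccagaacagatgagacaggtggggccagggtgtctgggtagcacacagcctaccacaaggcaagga
Vim: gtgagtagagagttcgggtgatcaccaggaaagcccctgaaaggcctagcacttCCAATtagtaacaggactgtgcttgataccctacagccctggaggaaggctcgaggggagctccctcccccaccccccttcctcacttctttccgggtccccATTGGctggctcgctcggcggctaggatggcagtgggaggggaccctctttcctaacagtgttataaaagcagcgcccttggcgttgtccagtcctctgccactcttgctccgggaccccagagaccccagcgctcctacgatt
Col4a1: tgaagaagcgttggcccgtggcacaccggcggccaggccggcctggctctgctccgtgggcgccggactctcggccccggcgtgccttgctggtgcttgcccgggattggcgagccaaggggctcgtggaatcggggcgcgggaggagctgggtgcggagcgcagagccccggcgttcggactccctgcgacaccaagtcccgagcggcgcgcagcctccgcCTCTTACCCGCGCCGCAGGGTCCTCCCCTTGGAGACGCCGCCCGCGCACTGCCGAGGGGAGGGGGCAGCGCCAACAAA
Col4a2: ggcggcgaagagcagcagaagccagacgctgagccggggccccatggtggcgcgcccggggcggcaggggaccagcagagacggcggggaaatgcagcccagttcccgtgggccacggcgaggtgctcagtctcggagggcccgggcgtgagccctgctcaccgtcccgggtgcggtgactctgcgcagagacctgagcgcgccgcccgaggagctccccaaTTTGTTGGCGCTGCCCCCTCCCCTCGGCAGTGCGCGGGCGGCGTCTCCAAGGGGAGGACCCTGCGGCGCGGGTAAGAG
Col4a1 and Col4a2 lie head to head on opposite strands, with annotated starts 21 bases apart. Each start lies downstream of the other, so the first bases of the annotated genes overlap. Both windows hold the 78 bases chr8:11312777-11312854. There the capitals of the Col4a1 line are the reverse complement of those of the Col4a2 line. The Col4a1 window holds 1 CCAAT and 1 GGGCGG match, and the Col4a2 window 1 and 3. That GGGCGG match of the Col4a1 window lies in the shared stretch and is also 1 of the 3 of the Col4a2 window.

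Basement membrane genes held 2 of the 4 genes that passed, with 7 listed, all 7 tested, 2 higher, 0 lower and a median difference of 0.16. Col4a1 (probe ILMN_2621643), the first chain of collagen IV, the network collagen of basement membranes, was at 9.04, 9.22, 8.87 and 8.84 in Mogat1 ASO livers, against 8.79, 8.23, 8.16 and 8.63 in control livers. The groups did not overlap, though control liver 1 came close to the lowest Mogat1 ASO liver. The difference was 0.54 (SE 0.15, 1.46-fold, adjusted p = 0.0407 by limma). This call was close to the threshold: it ended when any liver other than control ASO liver 1 was left out (adjusted p from just above 0.05 to 0.117), with median scaling (0.0871), without the filter on dim probes (0.0577) and without a variance trend (0.0525).

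Its partner Col4a2 was at 8.70, 9.05, 9.19 and 9.01 in Mogat1 ASO livers, against 8.92, 8.46, 8.24 and 8.40 in control livers. Mogat1 ASO liver 1 lay below control liver 1 and the groups overlapped. The difference of 0.48 (SE 0.15, 95% interval 0.15 to 0.82) was close in size to that of Col4a1 but did not pass (adjusted p = 0.0609 by limma). Col4a2 passed without Mogat1 ASO liver 1 (adjusted p = 0.0218), without control liver 1 (0.0132), with array weights (0.00641) and with robust moderation (0.0495).

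Lamc1 (probe ILMN_2974798), the gamma chain shared by most laminins, was at 6.70, 7.16, 7.21 and 7.22 in Mogat1 ASO livers, against 6.83, 6.46, 6.59 and 6.27 in control livers. Mogat1 ASO liver 1 was the low one of its group and lay within the controls. The difference was 0.53 (SE 0.16, 1.45-fold, adjusted p = 0.0476 by limma) and that of its dimmer probe was 0.39 (SE 0.13, adjusted p = 0.0792). The call was lost without Mogat1 ASO liver 2, 3 or 4 (adjusted p 0.102, 0.127 and 0.123), without control liver 2, 3 or 4 (0.118, 0.0927 and 0.118), with median scaling (0.0817), without the filter on dim probes (0.0725) and with the replicate number as a block (0.0871). Without background correction the difference was 0.31.

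The other basement membrane genes did not pass. Hspg2, which encodes perlecan, a heparan sulfate proteoglycan, averaged 8.57 ± 0.12 in Mogat1 ASO and 8.41 ± 0.13 in control livers (SD, n = 4 each), a difference of 0.15 (SE 0.10, adjusted p = 0.364 by limma), while its other probes gave 0.04 and -0.25. Nid1, whose product nidogen links laminin to collagen IV, differed by 0.16 (SE 0.12, adjusted p = 0.439 by limma). Col15a1, a collagen of the basement membrane zone, differed by 0.08 (SE 0.20, adjusted p = 0.838 by limma). Col18a1, the collagen from which endostatin is cut, averaged 13.38 ± 0.27 in Mogat1 ASO and 13.43 ± 0.17 in control livers (SD, n = 4 each), a difference of -0.05 (SE 0.13, adjusted p = 0.843 by limma).

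**Figure D2:**
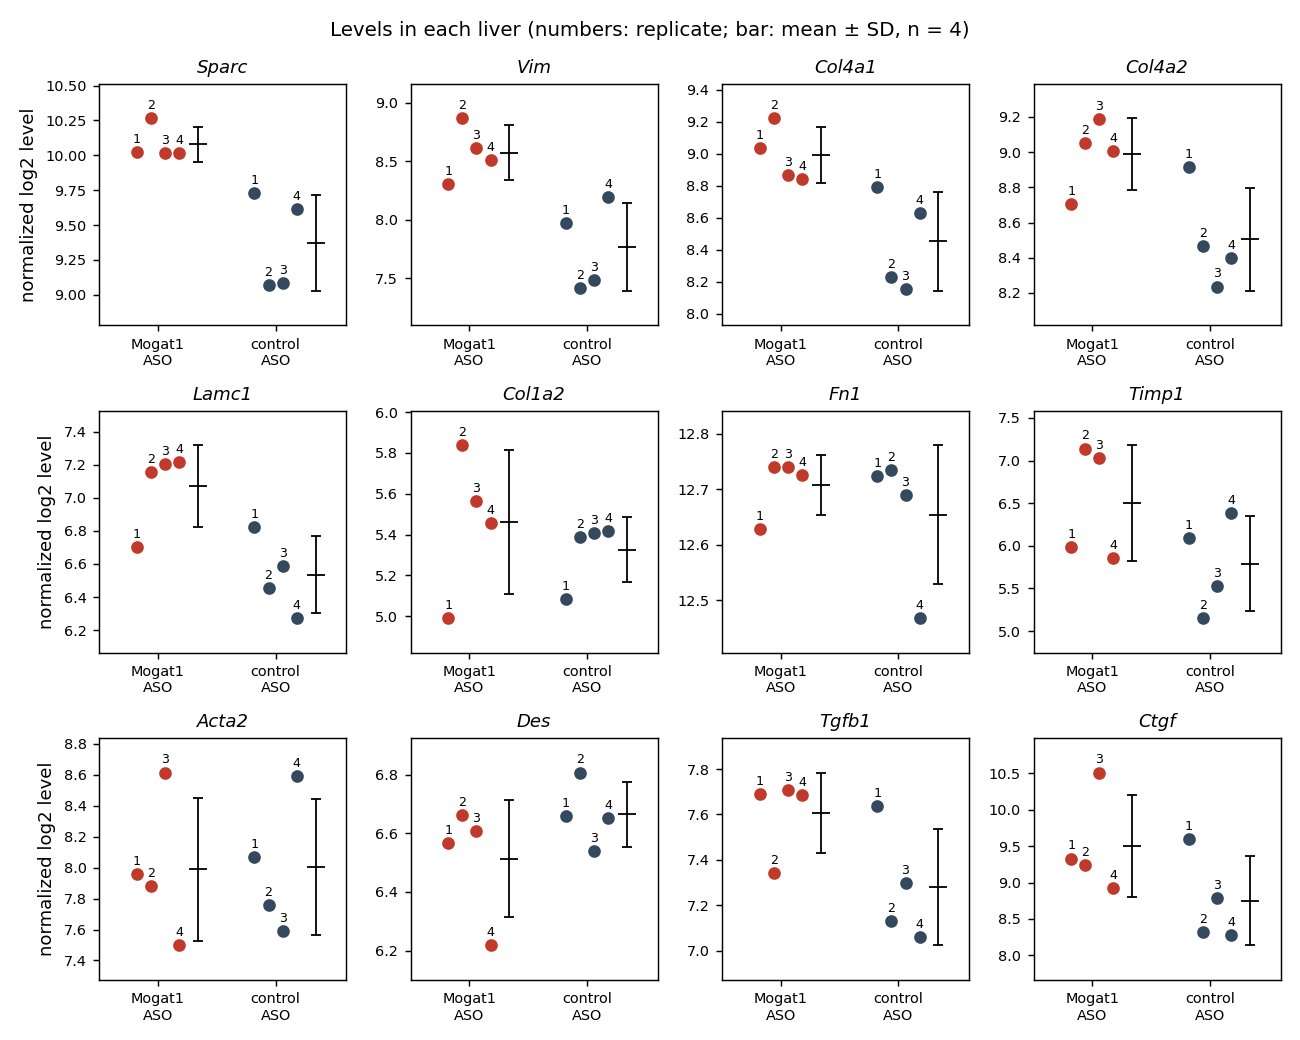
Normalized log2 level of 12 genes in each liver, Mogat1 ASO left and control ASO right in each panel; numbers are replicates and bars are the mean ± SD of 4 livers. The groups are separate for Sparc, Vim and Col4a1 and overlap for Col4a2, Lamc1, Col1a2, Fn1, Timp1, Acta2, Des, Tgfb1 and Ctgf.

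The fibrillar collagens, which form the scars of fibrosis, gave no call in limma (0 higher and 0 lower at an unadjusted p under 0.05), and 3 of the 5 could not be tested. Col1a2, the second chain of collagen I, was at 4.99, 5.84, 5.57 and 5.46 in Mogat1 ASO livers, against 5.09, 5.39, 5.41 and 5.42 in control livers, and it was detected on 3 arrays of each group. The groups overlapped, with liver 1 the low one in both, and the difference was 0.14 (SE 0.18, 95% interval -0.25 to 0.53, adjusted p = 0.666 by limma). Col1a1, the first chain of collagen I, has 2 probes, both too dim for the main test. The brighter was at 4.76, 6.47, 5.87 and 4.79 in Mogat1 ASO livers, against 5.17, 4.52, 4.56 and 4.86 in control livers. It was detected in Mogat1 ASO livers 2 and 3 and in no control liver. With no filter on dim probes, this probe did not pass (adjusted p = 0.295 by limma). No fold is given, since the Mogat1 ASO mean itself includes 2 livers in which the probe was not detected. Col5a1, of collagen V, which helps to set the width of collagen I fibrils, averaged 7.20 ± 0.33 in Mogat1 ASO and 6.92 ± 0.44 in control livers (SD, n = 4 each), a difference of 0.28 (SE 0.22, adjusted p = 0.447 by limma). Col3a1, the other main collagen of scars, and Col5a2, with 5 probes, were detected on no array. The median difference of the 2 tested genes was 0.21.

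Among the other collagens, 4 of 4 were tested, none passed in limma in either direction (0 and 0 at an unadjusted p under 0.05) and the median difference was 0.23. Col6a1, a chain of the microfibrillar collagen VI, was at 7.67, 8.59, 8.32 and 7.88 in Mogat1 ASO livers, against 8.64, 7.25, 7.38 and 7.86 in control livers. The highest value of all was that of control liver 1, and the difference of 0.33 had an SE of 0.29 (adjusted p = 0.497 by limma). Col6a3 was at 6.95, 7.92, 7.63 and 7.01 in Mogat1 ASO livers, against 8.11, 6.97, 7.11 and 7.75 in control livers. Control liver 1 was again above all others, and the difference was -0.11 (SE 0.28, adjusted p = 0.844 by limma). Col6a2 differed by 0.13 (SE 0.19, adjusted p = 0.720 by limma). Col14a1, a collagen that decorates fibrils, differed by 0.35 (SE 0.20, adjusted p = 0.283 by limma). Without control liver 1 it passed (adjusted p = 0.0245).

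Of the matrix glycoproteins and proteoglycans, 9 were listed, 6 tested, 1 was higher and 0 lower, with a median difference of 0.03. The gene that passed was Sparc (probe ILMN_3136561), a collagen-binding glycoprotein secreted into the matrix. It was at 10.03, 10.27, 10.01 and 10.01 in Mogat1 ASO livers, against 9.73, 9.07, 9.08 and 9.61 in control livers. The groups did not overlap, and the control livers varied more than the Mogat1 ASO livers. The difference was 0.71 (SE 0.15, 95% interval 0.37 to 1.04, 1.63-fold, adjusted p = 0.0131 by limma). A second probe of Sparc, at 9.50, 9.81, 9.72 and 9.31 in Mogat1 ASO livers, against 9.36, 8.34, 8.47 and 9.12 in control livers, differed by 0.76 (SE 0.21, adjusted p = 0.0394). Sparc was the member whose call held in each of the 21 alternatives it was run under, with adjusted p between 0.00303 and 0.043.

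Fn1, fibronectin, which the liver makes for plasma as well as for its matrix, was at 12.63, 12.74, 12.74 and 12.73 in Mogat1 ASO livers, against 12.72, 12.73, 12.69 and 12.47 in control livers. Its 8 values lay close together, and the interval of the difference (0.05, SE 0.08) ran from -0.12 to 0.23 (adjusted p = 0.712 by limma); a dimmer probe gave -0.49 (SE 0.21, adjusted p = 0.144). Dcn, decorin, a small leucine-rich proteoglycan that binds collagen, averaged 12.86 ± 0.23 in Mogat1 ASO and 12.77 ± 0.22 in control livers (SD, n = 4 each), a difference of 0.09 (adjusted p = 0.712 by limma). The other tested Dcn probes gave -0.11 to 0.23. Lum, lumican, another proteoglycan of that family, was at 7.52, 8.94, 8.17 and 7.94 in Mogat1 ASO livers, against 8.93, 7.76, 7.69 and 8.62 in control livers. Its values spread over more than 1 log2 unit within each group, and the difference was -0.11 (SE 0.33, adjusted p = 0.867 by limma). The second Lum probe gave -0.37 (SE 0.31, adjusted p = 0.489 by limma), and the mean of the Lum probes -0.24. Bgn, biglycan, differed by -0.10 (SE 0.12, adjusted p = 0.655 by limma), and Fbn1, the microfibril protein fibrillin, by 0.01 (SE 0.14, adjusted p = 0.961). Eln, elastin, Postn, periostin, and Thbs1, thrombospondin, which can activate latent TGF-beta, were detected on no array.

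The cross-linking enzymes make collagen and elastin fibres stiff, and 1 of the 3 could be tested: Lox and Loxl2 were detected on no array. Loxl1 was at 5.98, 7.40, 7.30 and 6.45 in Mogat1 ASO livers, against 7.59, 6.37, 6.38 and 7.29 in control livers. The groups overlapped over nearly their whole range, with a difference of -0.12 (SE 0.35, adjusted p = 0.859 by limma).

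The matrix proteases and their inhibitors were all tested (5 of 5), none passed in limma (2 higher and 0 lower at an unadjusted p under 0.05) and the median difference was 0.25. Mmp2, gelatinase A, was at 5.85, 8.10, 7.23 and 6.73 in Mogat1 ASO livers, against 7.68, 6.89, 6.31 and 7.47 in control livers. It spread over 2.25 log2 units among the Mogat1 ASO livers, and its interval was wide, with a difference of -0.11 (SE 0.42, 95% interval -1.04 to 0.82, adjusted p = 0.894 by limma). Mmp14, the membrane protease that activates the product of Mmp2, averaged 10.28 ± 0.18 in Mogat1 ASO and 10.02 ± 0.11 in control livers (SD, n = 4 each), a difference of 0.25 (SE 0.11, adjusted p = 0.143 by limma).

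The tissue inhibitors of these proteases had differences of both signs, and none passed. Timp1, whose RNA is a common marker of fibrotic liver, was at 5.98, 7.14, 7.03 and 5.86 in Mogat1 ASO livers, against 6.10, 5.15, 5.53 and 6.39 in control livers. Mogat1 ASO livers 2 and 3 were above all controls and the other two were not, and the difference of 0.71 (SE 0.34, 95% interval -0.03 to 1.45) did not pass (adjusted p = 0.195 by limma). The second Timp1 probe gave 0.80 (adjusted p = 0.220 by limma), and without background correction the difference of the first was 0.35. Both probes were detected on all 4 Mogat1 ASO arrays, but the first on 3 and the second on 2 control arrays. Timp2 was at 7.69, 8.06, 8.15 and 7.41 in Mogat1 ASO livers, against 8.77, 7.88, 7.95 and 8.40 in control livers. The groups overlapped, with a difference of -0.42 (SE 0.22, adjusted p = 0.235 by limma). Timp3, the inhibitor that stays bound to the matrix, was at 9.85, 9.51, 9.51 and 9.62 in Mogat1 ASO livers, against 9.51, 8.94, 9.01 and 9.42 in control livers. The groups did not overlap, although the lowest Mogat1 ASO and the highest control liver were equal to 2 decimals, and the difference was 0.40 (SE 0.14, adjusted p = 0.0871 by limma). Timp3 passed without control liver 1 (adjusted p = 0.0411), with array weights (0.0349) and with the replicate number as a block (0.0364). The dimmer Timp3 probe differed by -0.11 (adjusted p = 0.706), and the mean of the probes by 0.15.

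The filaments of stellate cells gave 1 call in 3 genes, with a median difference of -0.02. Vim (probe ILMN_2451022) encodes vimentin, the intermediate filament of mesenchymal, endothelial and blood cells. It was at 8.30, 8.87, 8.61 and 8.51 in Mogat1 ASO livers, against 7.97, 7.42, 7.49 and 8.20 in control livers. The groups did not overlap, and the difference of 0.80 (SE 0.18, 95% interval 0.40 to 1.21, 1.75-fold, adjusted p = 0.0162 by limma) was the largest of the 32 tested genes. The call was narrowly lost without Mogat1 ASO liver 3 (adjusted p = 0.0502) and without control liver 2 or 3 (0.0519 and 0.0545). Acta2, the smooth muscle actin by which stellate cells that have become myofibroblasts are recognised, was at 7.96, 7.88, 8.62 and 7.50 in Mogat1 ASO livers, against 8.07, 7.76, 7.59 and 8.60 in control livers. The groups covered nearly the same range, with a difference of -0.02 (SE 0.25, 95% interval -0.56 to 0.53, adjusted p = 0.977 by limma), and its other 3 probes gave 0.03 to 0.14. Des, desmin, a filament of rodent stellate cells, was at 6.57, 6.66, 6.61 and 6.22 in Mogat1 ASO livers, against 6.66, 6.81, 6.54 and 6.65 in control livers. It differed by -0.15 (SE 0.13, 95% interval -0.43 to 0.13, adjusted p = 0.490 by limma).

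Of the signals and receptors, 5 were listed, 4 tested and none passed in limma (2 higher and 0 lower at an unadjusted p under 0.05), with a median difference of 0.31. Tgfb1, transforming growth factor beta, a signal that drives stellate cells to make collagen, was at 7.69, 7.34, 7.71 and 7.69 in Mogat1 ASO livers, against 7.64, 7.13, 7.30 and 7.06 in control livers. Mogat1 ASO liver 2 and control liver 1 made the groups overlap, and the difference was 0.33 (SE 0.15, 95% interval 0.01 to 0.65, adjusted p = 0.170 by limma). Tgfbr2, the receptor that binds it, was at 10.50, 10.72, 10.61 and 10.60 in Mogat1 ASO livers, against 10.21, 10.32, 10.22 and 10.51 in control livers. One control liver reached the Mogat1 ASO range by a narrow margin, and the difference was 0.29 (SE 0.09, adjusted p = 0.062 by limma). Tgfbr2 passed without Mogat1 ASO liver 1 (adjusted p = 0.0349), without control liver 4 (0.0371) and with array weights (0.027). Ctgf, connective tissue growth factor, a secreted target of TGF-beta, was at 9.33, 9.24, 10.51 and 8.92 in Mogat1 ASO livers, against 9.60, 8.32, 8.79 and 8.28 in control livers. The groups overlapped, and the difference of 0.75 (SE 0.35, 95% interval -0.01 to 1.52) did not pass (adjusted p = 0.186 by limma); its second probe gave 0.53 (adjusted p = 0.308). Without Mogat1 ASO liver 3 the difference was 0.41.

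The receptors for platelet-derived growth factor, which makes stellate cells divide and migrate, did not pass either. Pdgfra was at 6.50, 6.29, 6.44 and 5.85 in Mogat1 ASO livers, against 7.30, 6.56, 6.39 and 6.63 in control livers. Its difference of -0.45 (SE 0.21, 95% interval -0.90 to 0.01, adjusted p = 0.185 by limma) was the lowest of the 32 genes; it was -0.26 without control liver 1 and -0.25 without background correction. Pdgfrb, the receptor form typical of stellate cells, was detected on 2 Mogat1 ASO arrays and 1 control array and was not tested; its levels were 4.76, 5.34, 5.43 and 4.87 in Mogat1 ASO livers, against 5.27, 4.80, 4.86 and 5.04 in control livers. These levels overlapped.

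The members varied more between livers given the same ASO than most genes did. The median SD between livers of a group, pooled over both groups, was 0.267 for the 32 members and 0.178 for all genes, with 25 of the 32 above the median of all genes and 13 of the 32 in the top 10%. Mmp2 (0.794), Loxl1 (0.656), Ctgf (0.654), Timp1 (0.618) and Lum (0.609) had the widest spread of the members, and Fn1 (0.0967), Tgfbr2 (0.119) and Hspg2 (0.122) the narrowest. In 9 members the livers of a group ranged over more than 1 log2 unit, a count that was not made for all genes. No test was made of this, since the members share their arrays.

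**Figure D3:**
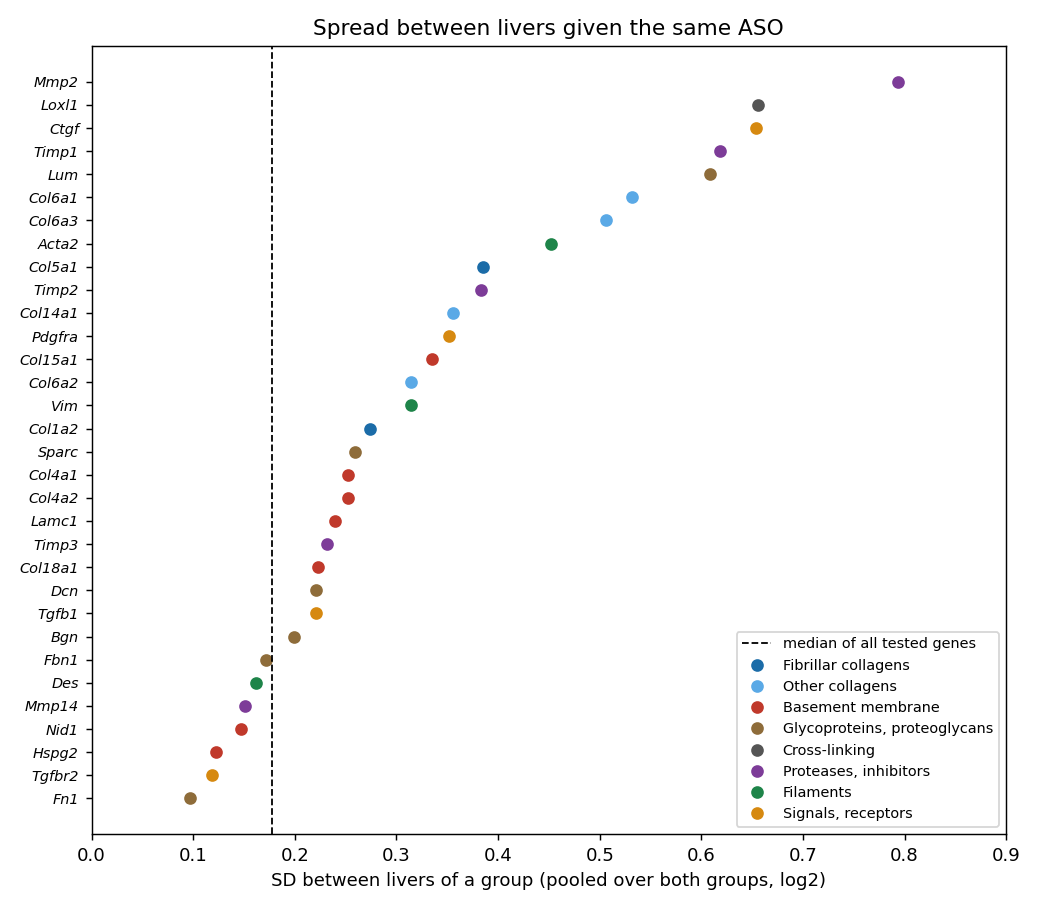
SD of the normalized log2 level between livers of a group (pooled over the Mogat1 ASO and control ASO groups, 4 livers each) for the 32 tested genes, coloured by role. Mmp2 is highest at 0.794 and Fn1 lowest at 0.0967; the dashed line is the median of all tested genes, 0.178.

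The livers took similar places in many of these genes. Mogat1 ASO liver 2 was the highest of its group in 19 of the 32 genes (59.4%, against 21.9% of all genes), and Mogat1 ASO livers 1 and 4 were the lowest in 14 and 15 (43.8% and 46.9%, against 28.5% and 24.5%). Control liver 1 was the highest of its group in 20 of the 32 (62.5%, against 29.7%). Control livers 2 and 3 were the lowest in 12 and 11 (37.5% and 34.4%, against 21.9% and 22.5%). Averaged over the 32 genes, the deviation from each gene's mean over all livers was -0.10, 0.31, 0.26 and -0.09 in Mogat1 ASO livers, against 0.22, -0.29, -0.29 and -0.02 in control livers. The groups overlapped: control livers 1 and 4 both lay above Mogat1 ASO livers 1 and 4. Mogat1 ASO liver 1 and control liver 1 are also the 2 livers that stood apart on the second principal component. With both left out, a choice made after seeing the data, 9 of the 32 genes were higher: Col4a1, Col4a2, Lamc1, Col6a1, Col14a1, Sparc, Timp3, Vim and Ctgf, and none was lower. Calls also rose over the whole array in this setting, to 10.5% of all genes higher, against 7.14% with all livers.

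**Figure D4:**
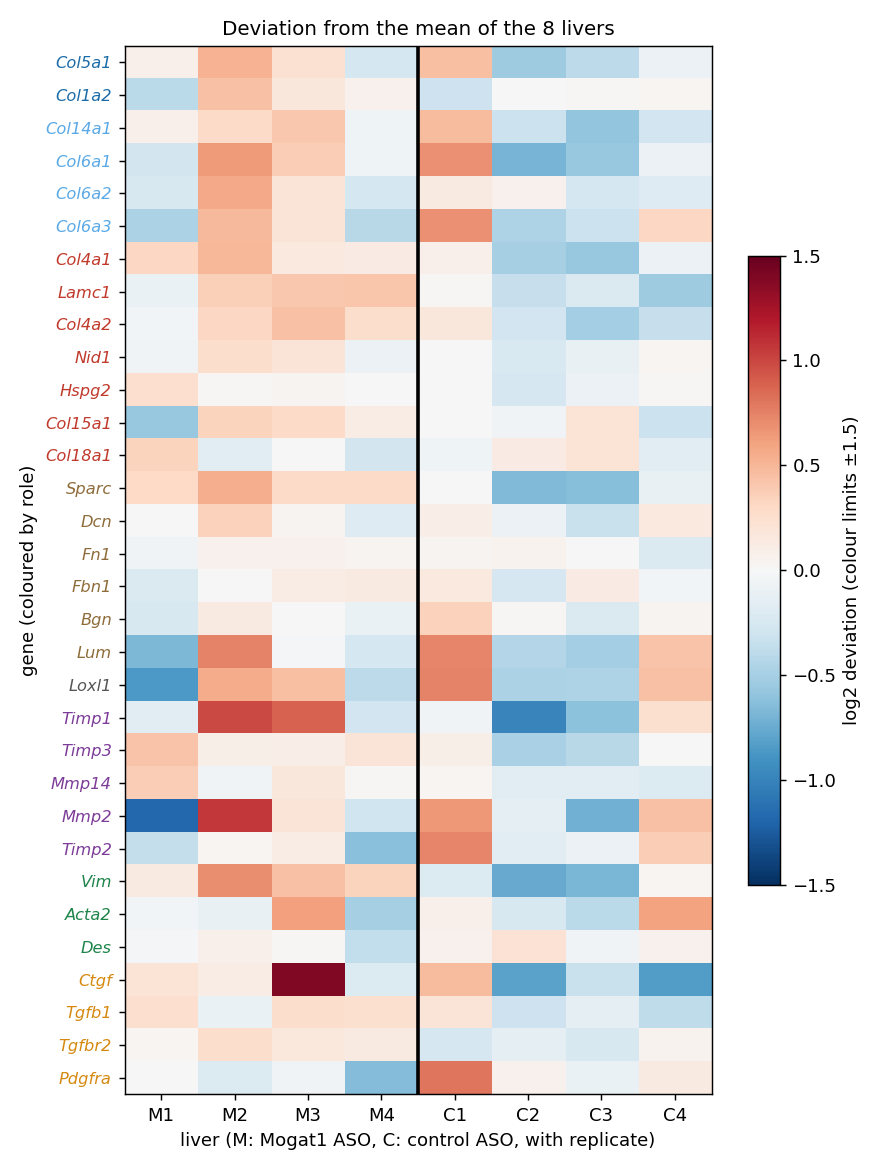
Deviation of each of the 32 tested genes from its mean over the 8 livers (log2), blue below 0 and red above, with 1 row per gene and 1 column per liver: M1 to M4 are Mogat1 ASO livers and C1 to C4 control ASO livers. Mogat1 ASO livers 2 and 3 and control liver 1 lie mostly above 0 (means 0.31, 0.26 and 0.22), and control livers 2 and 3 mostly below (both -0.29).

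Related genes outside the 41 gave calls in both directions. Of all genes tested, 7.14% were higher and 6.12% lower, the shares to set beside the lists below. At an unadjusted p under 0.05 in limma, these shares were 15.2% and 13.7%. Of 49 further matrix genes 23 were tested and none passed in limma (2 higher and 2 lower at an unadjusted p under 0.05; median -0.01); the brightest, Ecm1, differed by -0.35 (adjusted p = 0.166). Of 25 genes of collagen folding and processing 19 were tested, 0 were higher and 2 lower (median 0.06). P4ha2, a chain of the prolyl hydroxylase that stabilises the collagen helix, averaged 7.61 ± 0.13 in Mogat1 ASO and 8.08 ± 0.06 in control livers (SD, n = 4 each), a difference of -0.47 (adjusted p = 0.0125 by limma). Bmp1, which trims procollagen, averaged 10.73 ± 0.22 in Mogat1 ASO and 11.17 ± 0.15 in control livers (SD, n = 4 each), a difference of -0.44 (adjusted p = 0.033 by limma). The other probes of both did not pass, and neither gene passed when its probes were averaged (adjusted p = 0.0857 and 0.137). The Bmp1 call was also lost without the filter on dim probes (0.0515), without a variance trend (0.0527), and without any one of Mogat1 ASO livers 2, 3 or 4 or control livers 1, 2 or 3 (0.068 to 0.0989).

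Of 33 further proteases, their inhibitors and activators 14 were tested, 2 were higher and 1 lower (median 0.09). Ctsk, cathepsin K, a collagen-degrading protease, averaged 6.52 ± 0.20 in Mogat1 ASO and 5.68 ± 0.39 in control livers (SD, n = 4 each), 1.79-fold higher (adjusted p = 0.0153 by limma; 0.0532 without Mogat1 ASO liver 3). Its log2 difference was 0.84, and 0.39 without background correction and 0.55 with an offset of 50. Plau, urokinase, which activates plasminogen, averaged 6.98 ± 0.11 in Mogat1 ASO and 6.25 ± 0.22 in control livers (SD, n = 4 each), 1.66-fold higher (adjusted p = 0.00577 by limma), a log2 difference of 0.73, and 0.40 without background correction. Mmp15, a membrane-type matrix protease, was lower by a difference of -0.46 (adjusted p = 0.0313 by limma), but not without the filter on dim probes (0.0592), Mogat1 ASO liver 2 or 4, or control liver 1, 3 or 4 (0.0558 to 0.0911). Of 30 TGF-beta and PDGF pathway genes 17 were tested, 1 was higher and 0 lower (median -0.11). It was Pdgfb, the ligand of Pdgfrb, which averaged 6.85 ± 0.26 in Mogat1 ASO and 6.29 ± 0.14 in control livers (SD, n = 4 each; adjusted p = 0.0295 by limma), and which did not pass without Mogat1 ASO liver 3 or control liver 2 or 3 (0.0814 to 0.0875). Its difference was 0.56, and 0.31 without background correction.

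Of 27 matrix receptors and adhesion genes 18 were tested, 1 was higher and 2 lower (median -0.11). Cd44, the hyaluronan receptor, averaged 9.33 ± 0.26 in Mogat1 ASO and 8.62 ± 0.19 in control livers (SD, n = 4 each), 1.64-fold higher (adjusted p = 0.00842 by limma). A second Cd44 probe gave 0.52 (adjusted p = 0.0677 by limma). The dimmest, detected on 2 of 4 Mogat1 ASO and 4 of 4 control arrays, gave -0.17. The mean of the Cd44 probes did not pass (adjusted p = 0.052 by limma). Parva, which links integrins to actin, differed by -0.59 (adjusted p = 0.0069 by limma). Itga1, the integrin chain that binds collagen, differed by -0.46 (adjusted p = 0.0317 by limma), a call lost with median scaling (0.125), without the filter on dim probes (0.0631), with both livers 1 left out (0.0502), and without Mogat1 ASO liver 2, 3 or 4 or control liver 1, 2 or 4 (0.0653 to 0.0871). Without background correction the Itga1 difference was -0.28.

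Markers of stellate cells and their relatives differed in both directions. Of 14 stellate markers that are not members 8 were tested, 0 were higher and 1 lower (median -0.24). Their differences were positive in 3 and negative in 5. At an unadjusted p under 0.05 in limma, 0 were higher and 3 lower (15.2% and 13.7% of all genes). Reln, reelin, averaged 11.09 ± 0.14 in Mogat1 ASO and 11.50 ± 0.18 in control livers (SD, n = 4 each; adjusted p = 0.0295 by limma), but did not pass without the filter on dim probes (0.0501), without a variance trend (0.0508), or without Mogat1 ASO liver 2 or 4 or control liver 1, 2 or 3 (0.0507 to 0.0876). Lrat, which makes the retinyl esters that quiescent stellate cells store, differed by -0.37 (adjusted p = 0.186 by limma). It was detected on 1 of 4 Mogat1 ASO and 3 of 4 control arrays. Its means of 5.19 and 5.56 were near the lowest detected levels of the arrays (5.18 to 5.35). Of 9 further contractile genes 4 were tested, 1 was higher and 1 lower. Tpm1 was 1.78-fold higher in Mogat1 ASO livers (10.34 ± 0.21, against 9.51 ± 0.19 in control livers, SD, n = 4 each; adjusted p = 0.00252 by limma), and Tpm2 was 3.47-fold lower (6.69 ± 0.55, against 8.48 ± 0.57; adjusted p = 0.00408). Both encode tropomyosins, actin-binding proteins; the smooth muscle markers Tagln, Cnn1, Actg2 and Myh11 could not be tested. Of 10 portal fibroblast and mesothelial markers 3 were tested and Entpd2, an ectonucleotidase of portal fibroblasts, was 1.47-fold higher (adjusted p = 0.0124 by limma).

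Markers of other cells that use Vim, Sparc, Col4a1 or Lamc1 were set beside these genes. Of 16 macrophage markers 14 were tested (Itgam and Ccr2 were not), 4 were higher and 1 lower (median 0.24), and their mean deviation per liver was -0.01 to 0.37 in Mogat1 ASO livers and -0.39 to 0.12 in control livers. Among them C1qa, a complement component, differed by 0.68 (adjusted p = 0.00776 by limma), Lyz2, lysozyme, by 0.65 (adjusted p = 0.0228) and Cd163, a scavenger receptor of resident macrophages, by -1.01 (adjusted p = 0.00774). The Lyz2 call was lost with median scaling (0.0778), with the mean of its probes (0.0699), without Mogat1 ASO liver 3 (0.063) and without control liver 3 (0.0715). Of 14 markers of sinusoidal endothelium all 14 were tested, 1 was higher and 1 lower (median 0.10), and their mean deviation was -0.01 to 0.10 in Mogat1 ASO livers and -0.12 to 0.03 in control livers. They were Lyve1, a hyaluronan receptor, 2.43-fold higher (adjusted p = 0.00121 by limma; log2 difference 1.28, and 0.78 without background correction), and Stab2, a scavenger receptor, which differed by -0.57 (adjusted p = 0.00428). Of 7 cholangiocyte markers 4 were tested and none passed in limma (0 in either direction at an unadjusted p under 0.05); Sox9, the brightest, differed by 0.26 (adjusted p = 0.570). The part of macrophages, endothelium or other cells in the differences of the 4 genes was not tested.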

How the data were processed

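Liver RNA of 8 mice, 4 given the Mogat1 ASO and 4 the control ASO, was put on Illumina bead arrays, 1 per mouse, after linear amplification and biotin labelling, per the labels' protocols. For each probe and array, the authors deposited a signal intensity that was not normalized. The detection p-values deposited beside it were taken to compare the probe with the negative control beads. The deposited table of processed intensity (medians 5.75 to 5.78, with 38.0% to 38.1% of the values negative) served as an alternative; the sources used here do not give its software.

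Background correction, quantile normalization and the log2 step (offset 16) were done with neqc in limma 3.58.1 (R 4.3.3, and the data.table package, version 1.17.8). Folds of dim probes depend on that offset and on the correction. Adjusted p-values are limma's, two-sided, from lmFit and eBayes with a variance trend, and confidence intervals are at 95%. The code was tested on simulated data. Rank correlations between arrays were 0.910 to 0.925. Through RefSeq names (GRCm38.p6) the symbols of 8037 probes were updated, while 27740 were current and 9504 were kept as in the file. Sequences and figures used Python 3.11.15 and matplotlib 3.10.9. The precision is limited by the number of mice.

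The members and the lists were chosen with earlier results of these data known. All members are named, with the value of each liver for those that passed, for preselected collagen, stellate and signalling genes, and for others with a wide spread or an adjusted p near the threshold, added after their values were seen. In each further list up to 3 genes that passed, by size of difference, are named, or else the brightest; Lrat, Ass1, Cps1, Hnf4a, Alb, Fgb, Tat and genes that could not be tested were added. Alternatives were the background correction, scaling, offset, filter, variance trend, robust moderation, array weights, the processed values, the mean of a gene's probes, the replicate number as a block and each liver left out.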

Additional observations from a re-analysis of the deposited data

Results flagged for a closer look

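In 8 of the 64 groups of 4 livers tested (32 genes, 2 ASOs), a single liver lay far from the others. Its gap to the nearest, as a share of the whole range of the group, was above Dixon's 95% critical value for 4 samples. Chance gives this in about 1 of 20 independent groups, whereas these groups share 8 arrays. The share of such groups among all genes was not computed. Among Mogat1 ASO livers, liver 1 was the high one for Hspg2 (0.832) and the low one for Lamc1 (0.879) and Fn1 (0.875), and liver 2 was the high one for Sparc (0.953) and the low one for Tgfb1 (0.940). Among control ASO livers, liver 1 was the low one for Col1a2 (0.908) and the high one for Mmp14 (0.872), and liver 4 was the low one for Fn1 (0.834).

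Outside the tested probes, the brighter Col1a1 probe was detected on 2 of 4 Mogat1 ASO arrays and on 0 of 4 control arrays. A dimmer probe of Tgfbr2 was detected on 3 of 4 Mogat1 ASO arrays and on 0 of 4 control arrays. No fold is given for either. These detections were not tested.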

How the results depend on the processing

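The number of member genes higher in Mogat1 ASO livers was 4, and 2 with median scaling, 2 with no filter on dim probes (all 41 genes tested), 7 with array weights and 9 with both livers 1 left out, an alternative chosen after seeing the data; it ranged from 1 to 7 when 1 liver was left out. It was 3 to 5 in the others, and no member was lower in any alternative. The share of all genes that were higher also moved, from 7.14% to 4.3% with median scaling and 2.32% with no filter on dim probes. With array weights it was 11.5%, with both livers 1 left out 10.5%, and when 1 liver was left out 4.02% to 9.7%. Of all probes 2078 passed, and 3561 with array weights, 3359 with both livers 1 left out and 1149 to 3098 when 1 liver was left out. With the replicate number as a block 4 members and 1967 probes passed: Lamc1 was lost (adjusted p = 0.0871) and Timp3 gained (0.0364). The labels do not say whether same-numbered livers are paired. The correlations of their deviations were 0.226, 0.0692, -0.0244 and -0.00836 for numbers 1 to 4. The median difference of the members was 0.0945 to 0.30 over the alternatives and 0.0699 to 0.247 when 1 liver was left out.

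Differences near 0, none of them called, changed sign in some alternatives. With median scaling Fn1 was at -0.0425 and Dcn at -0.0090. With array weights Col6a3 was at 0.12, Lum at 0.14, Loxl1 at 0.21, Mmp2 at 0.21 and Acta2 at 0.11. With the mean of the probes Hspg2 was at -0.016, Fn1 at -0.22 and Acta2 at 0.066. With both livers 1 left out Col6a3 was at 0.25, Lum at 0.33, Bgn at 0.066, Loxl1 at 0.37, Mmp2 at 0.46 and Acta2 at 0.016. When 1 liver was left out Acta2 ran from -0.22 to 0.18, Bgn from -0.19 to 0.0027, Col15a1 from -0.019 to 0.28, Col18a1 from -0.17 to 0.031, Col6a2 from -0.042 to 0.24, Col6a3 from -0.29 to 0.10, Dcn from -0.012 to 0.17, Fbn1 from -0.066 to 0.088, Fn1 from -0.0073 to 0.082, Loxl1 from -0.33 to 0.15, Lum from -0.375 to 0.12 and Mmp2 from -0.485 to 0.26. The causes were not tested. With 4 livers a group, the number of mice limits the precision, and 9 members were too dim to test.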
